A study of Caenorhabditis elegans with 3 samples.

Results

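The nas genes of Caenorhabditis elegans encode astacins, a family of secreted zinc metalloproteases, and their RNA was measured in whole wild-type larvae of the fourth stage. Members were all genes whose symbol is nas followed by a number, a rule that used no measured value. This gave 36 of the 20392 genes in the table. The family and the lists of other genes were, however, chosen with earlier results of these data known. The study held 1 group of 3 libraries, which the submitters described as independent: whole worms of the wild-type strain N2 with no treatment, kept at 25 °C with OP50 bacteria as food, and harvested in mid-L4 at 29 h. Total RNA was depleted of ribosomal RNA before sequencing. Values are TPM, an abundance scaled to the library total and divided by transcript length, so that levels of different genes can be compared within a library, and each library summed to 1000000 TPM. With 1 group there was no condition to compare and no test was run. Errors are the SD over the 3 libraries, and the read depth behind a TPM value is unknown.

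Astacins are made as inactive precursors whose propeptide is removed to free a catalytic zinc bound by a histidine-rich motif. Many carry further domains behind the protease, such as EGF, CUB or thrombospondin type 1 repeats, which are thought to bind them to matrix or substrates. In nematodes they act mainly outside cells, where members are known to process collagen precursors, to help dissolve the old cuticle at each molt and to digest the eggshell at hatching. The fourth larval stage ends with the molt to the adult.

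Most nas genes were rare at mid-L4. Detection meant a level of at least 1 TPM in each of the 3 libraries. It was met by 9 of 36 members (25.0%) and by 61.1% of all genes. Another 9 members reached 1 TPM in 1 or 2 libraries, and 18 stayed below it in every library. Shares of all genes are not given for these counts. Taken singly, replicates 1, 2 and 3 held 13, 11 and 15 members at 1 TPM or more. They held 13444, 13322 and 13172 of all 20392 genes at that level. The 3 members nas-2, nas-16 and nas-17 (8.33%) were listed at 0 throughout, as were 6.19% of all genes. Taken on the mean TPM of each gene, the median log2(TPM + 1) was 0.75 over the members and 2.16 over all genes. These correspond to median levels of 0.684 and 3.48 TPM. Library medians in replicates 1, 2 and 3 were 0.73, 0.64 and 0.73 over the members (SD 0.05, n = 3). Over all genes the library medians were 2.18, 2.12 and 2.08 (SD 0.05, n = 3). In bulk RNA, fewer expressing cells and less RNA per cell cannot be told apart. A low level can therefore come from a few cells with much RNA or from many with little.

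A handful of genes carried the family's RNA. The members summed to 125.0 TPM in replicate 1, 79.98 in replicate 2 and 68.2 in replicate 3, and held 0.00910% ± 0.00300 (SD, n = 3) of all TPM. The 4 highest members of a library held 76.4%, 69.7% and 61.0% of the family's sum in replicates 1, 2 and 3. The genes nas-37 and nas-11 were among these 4 in every library. They were joined by nas-4 and nas-15 in replicate 1, by nas-9 and nas-4 in replicate 2 and by nas-9 and nas-3 in replicate 3.

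**Figure D1:**
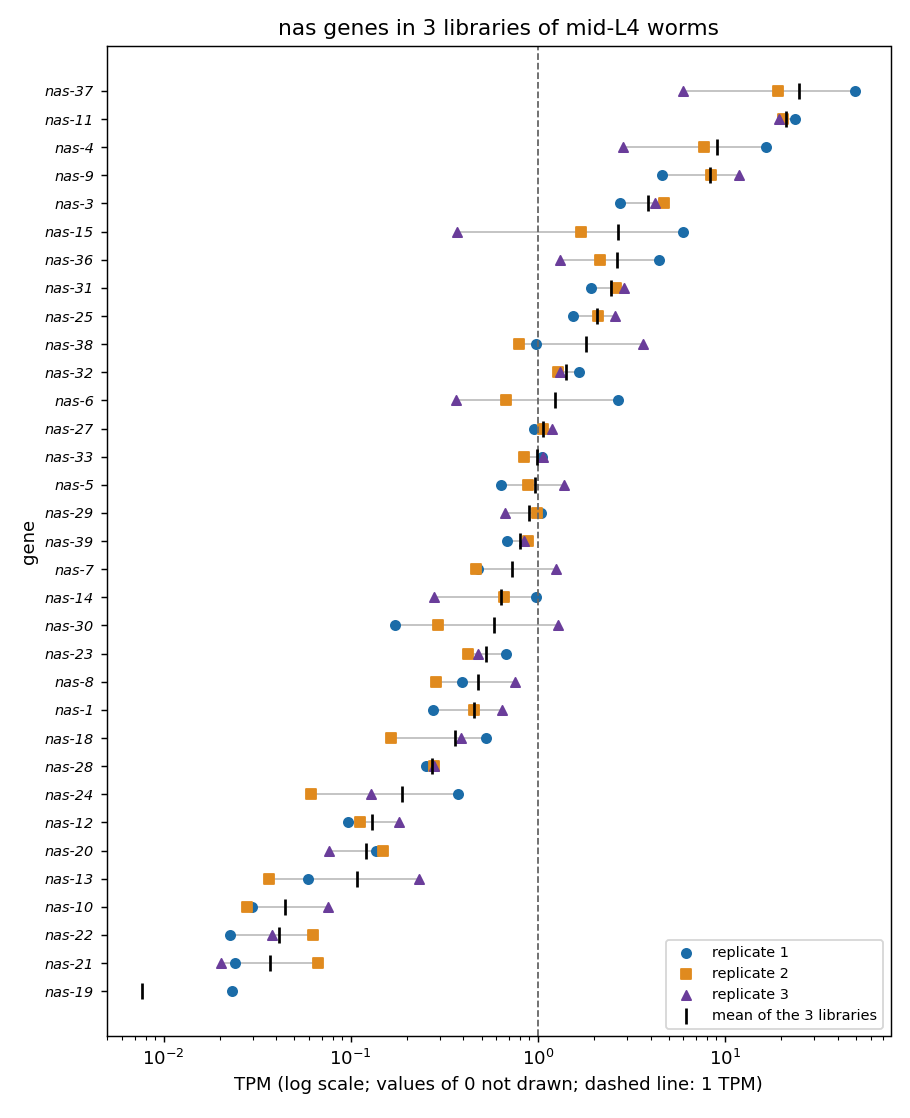
TPM on a log scale of the 33 nas genes above 0 in at least 1 library, with 1 point per library, a black tick at the mean and a dashed line at 1 TPM. The 9 detected genes lie wholly at or right of the line, nas-37 and nas-11 are highest, and nas-15, nas-6, nas-38 and nas-30 spread across the line; nas-2, nas-16 and nas-17 were listed at 0 and are not drawn.

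The molting proteases nas-37 and nas-36 are both known to be needed for shedding the old cuticle. The gene nas-37 (chromosome X, 9944844 to 9949063, minus strand, WBcel235) stood at 49.5, 19.1 and 5.99 TPM in replicates 1, 2 and 3, with a mean of 24.9 ± 22.3 TPM, the highest of the family. Its highest library thus held 8.26 times its lowest, and the mean was 12.6 TPM without replicate 1. The gene nas-36 (chromosome I, 7527224 to 7531715, plus strand) had 4.46, 2.15 and 1.31 TPM, a mean of 2.64 ± 1.63, and was 1.73 TPM without replicate 1. Both were highest in replicate 1 and lowest in replicate 3, and nas-37 lay above nas-36 in every library. The ratio of their levels was 11.1, 8.91 and 4.56 in replicates 1, 2 and 3.

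The other abundant gene, nas-11 (chromosome X, 6713577 to 6716357, plus strand), was the steadiest detected member. It had 23.6, 20.5 and 19.5 TPM, a mean of 21.2 ± 2.13 and a coefficient of variation of 10.1%, against a median of 12.1% over all detected genes. The SD of nas-37 covers the gap between the means of these 2 genes. Within libraries nas-37 stood at 2.10 times nas-11 in replicate 1, at 0.935 times in replicate 2 and at 0.307 times in replicate 3, so the order of the 2 highest members differed between libraries.

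Next in mean level were nas-4 and nas-9, whose libraries ranked the opposite way. The gene nas-4 (chromosome III, 6411578 to 6415656, minus strand) had 16.6, 7.73 and 2.84 TPM in replicates 1, 2 and 3, with a mean of 9.04 ± 6.96 and of 5.28 without replicate 1. The gene nas-9 (chromosome V, 4836027 to 4840013, minus strand) had 4.60, 8.46 and 11.9 TPM, with a mean of 8.34 ± 3.67. Their means differed by less than either SD. The level of nas-9 was 0.278 times that of nas-4 in replicate 1, 1.10 times in replicate 2 and 4.21 times in replicate 3. Every library of nas-11 lay above every library of these 2 genes.

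The remaining 4 detected members had means under 4 TPM and differed less than 2-fold between libraries. The gene nas-3 had 2.75, 4.73 and 4.21 TPM (mean 3.90 ± 1.03). The gene nas-31 had 1.92, 2.61 and 2.87 TPM (mean 2.47 ± 0.491), and nas-25 had 1.55, 2.09 and 2.59 TPM (mean 2.07 ± 0.518). These 3 genes were lowest in replicate 1, whereas nas-32 was highest there, at 1.67, 1.28 and 1.31 TPM (mean 1.42 ± 0.218). The ranges of nas-31 and nas-25 overlapped each other and that of nas-36, although within each library nas-31 lay above nas-25. At an even lower level, nas-27 missed detection narrowly, with 0.952, 1.07 and 1.18 TPM.

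Several members crossed 1 TPM in some libraries only. The largest spread of any member above 0 in every library was that of nas-15, at 5.94, 1.71 and 0.368 TPM in replicates 1, 2 and 3, a 16.1-fold range. Its mean of 2.67 ± 2.91 was 1.04 TPM without replicate 1. The gene nas-6, known to be needed for the grinder, the cuticular tooth plate of the pharynx, had 2.68, 0.672 and 0.364 TPM, with a mean of 1.24 ± 1.25 and of 0.518 without replicate 1. Both genes were thus highest in replicate 1, where nas-37, nas-4 and nas-36 also were.

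Other members were highest in replicate 3. Of the 33 members above 0, whatever their level, 13 were highest in replicate 1 (39.4%), 6 in replicate 2 (18.2%) and 14 in replicate 3 (42.4%). Of all detected genes, a set with a higher floor, 39.8%, 20.0% and 40.2% were highest in replicates 1, 2 and 3. The members' division was thus near that of genes at large. The gene nas-38, known for its effect on sleep-like quiescence around the molt, had 0.972, 0.788 and 3.65 TPM in replicates 1, 2 and 3 (mean 1.80 ± 1.60, and 0.880 without replicate 3). The gene nas-30 had 0.173, 0.291 and 1.29 TPM (mean 0.584 ± 0.613, and 0.232 without replicate 3). The gene nas-7 had 0.481, 0.465 and 1.24 TPM (mean 0.730 ± 0.445, and 0.473 without replicate 3). In these 3 genes replicates 1 and 2 lay below 1 TPM and replicate 3 lay above it. The gene nas-5 was also above 1 TPM in replicate 3 alone, with 0.632, 0.881 and 1.39 TPM.

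Other members near the limit varied less. The gene nas-39, whose domain makeup is that of the tolloid and BMP1 proteases of flies and vertebrates, had 0.684, 0.880 and 0.844 TPM (mean 0.803 ± 0.105). Its coefficient of variation was 13.1%, close to the median of detected genes. The gene nas-33 had 1.05, 0.840 and 1.07 TPM, and nas-29 had 1.04, 0.988 and 0.667 TPM. None of these 3 was detected in all libraries, and no library of theirs exceeded 1.07 TPM.

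The detected members varied more between libraries than the typical detected gene, a description without a test. Their median log2(TPM + 1) was also lower, at 2.29 against 3.41 for all detected genes, and the comparison was not matched for level. In 4 of the 9 detected members (nas-37, nas-4, nas-36 and nas-9) the highest library was at least 2-fold above the lowest, and this held for 15.4% of all detected genes. The median ratio of highest to lowest library was 1.72 for the 9 and 1.26 for all detected genes. Among the 13 members with a mean of at least 1 TPM, 7 differed at least 2-fold, with nas-15, nas-6 and nas-38 added, against 19.1% of genes at that mean. Without replicate 1 the count among detected members was 2, namely nas-37 and nas-4.

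The libraries did not all shift in 1 direction for the family. Of the 7 members with a mean of at least 1 TPM and a difference of at least 2-fold, 5 were highest in replicate 1, 0 in replicate 2 and 2 in replicate 3. Of all genes meeting those limits, 64.5% were highest in replicate 1, 6.28% in replicate 2 and 29.2% in replicate 3, so the members' division was near that of the background. Among the 9 detected members 5 were highest in replicate 1, 1 in replicate 2 and 3 in replicate 3, where the shares of all detected genes were 39.8%, 20.0% and 40.2%.

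**Figure D2:**
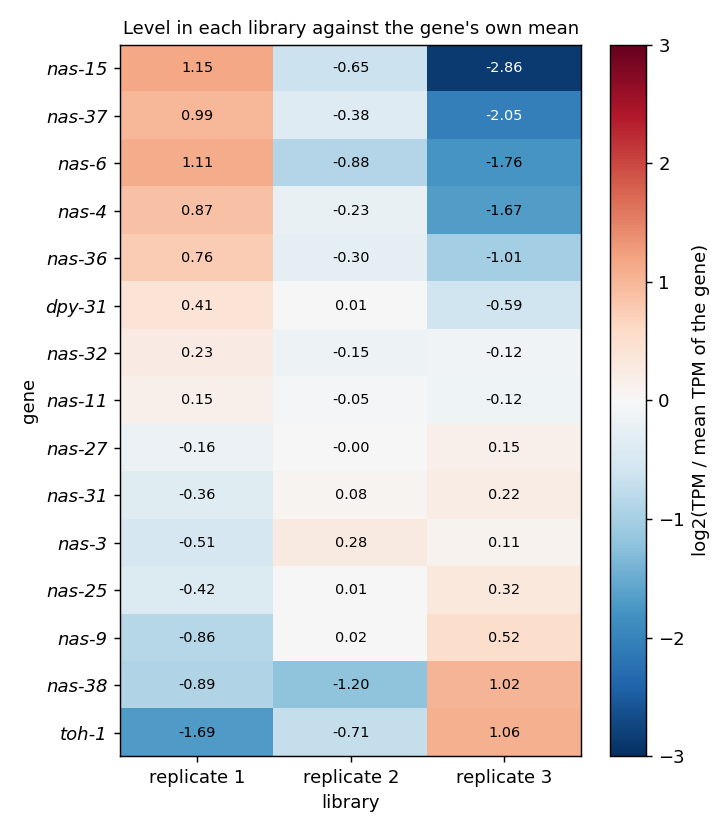
Each cell gives log2 of a gene's TPM in 1 library over its own mean of the 3 libraries, for the 13 nas genes that averaged 1 TPM or more and the astacins dpy-31 and toh-1, ordered by replicate 1 minus replicate 3. Replicate 1 is highest at the top (nas-15 at 1.15, nas-37 at 0.99) and replicate 3 at the bottom (nas-38 at 1.02, toh-1 at 1.06), with nas-11, nas-32 and nas-27 close to 0 throughout.

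Other gene lists also differed between these libraries, and their part in the values of the nas genes was not tested. Of 20 molting genes 19 were detected and 12 of these differed at least 2-fold. Their summed level was 1273, 898 and 423 TPM in replicates 1, 2 and 3, and 15 of the 19 were highest in replicate 1. The cuticle-shedding gene mlt-10, for example, had 18.96, 5.32 and 1.20 TPM, whereas the peroxidase gene mlt-7 was highest in replicate 3, with 3.20, 4.62 and 13.9 TPM. The 10 epidermis markers, all detected, summed to 576, 389 and 183 TPM. That sum did not stand for every marker, since 5 of the 10 differed at least 2-fold. Highest in replicate 1 were 9 of them, among them ajm-1 with 12.5, 10.3 and 12.2 TPM. The marker elt-3 was highest in replicate 3, with 8.04, 8.83 and 10.1 TPM. The 10 sperm markers, of which 7 were detected, summed to 214, 84.6 and 53.3 TPM. Sums of the 7 body wall muscle markers (3159, 3155 and 3207 TPM) and of the 8 neuronal markers (195, 199 and 195 TPM) stayed level, and all 15 were detected. The 11 pharynx markers, 9 of them detected, summed to 285, 328 and 354 TPM. Of the 9, 7 were highest in replicate 3 and 2 in replicate 1, among these phat-3 with 9.63, 7.01 and 5.62 TPM. The 7 intestine markers, all detected, summed to 4639, 5117 and 4896 TPM. Of these, 2 were highest in replicate 1, 3 in replicate 2 and 2 in replicate 3. The 2 largest ranked differently, mtl-2 with 1703, 2414 and 2233 TPM and asp-1 with 2059, 1793 and 1694 TPM. None of 5 markers of male-specific neurons was detected, with cwp-1 and cwp-2 at 0 in 2 libraries and sums between 0.586 and 0.807 TPM.

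Of 4 listed astacins without a nas symbol 3 were matched, and their levels ranged widely, as those of the family did. Their means ran from 0.0124 TPM (hch-1) to 26.5 TPM (dpy-31), and those of the nas genes from 0 to 24.9 TPM (nas-37). The collagen-processing protease gene dpy-31, the procollagen C-proteinase of the cuticle, had 35.2, 26.6 and 17.6 TPM in replicates 1, 2 and 3, with a mean of 26.5 ± 8.82. Its substrate gene, the collagen sqt-3, had 410, 221 and 54.5 TPM. The level of dpy-31 was below that of nas-37 in replicate 1 and above it in replicates 2 and 3, and its range overlapped those of nas-37 and nas-11. The level of toh-1 was 1.36, 2.67 and 9.10 TPM, highest in replicate 3 like nas-38 and nas-9. The hatching enzyme gene hch-1, known from the end of embryogenesis, stood at 0.0254 TPM in replicate 1 and 0.0118 TPM in replicate 2, and was listed at 0 in replicate 3.

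Metalloproteases of other families are given for their level beside the nas genes. Of 16 genes of the ADAM, ADAMTS and matrix metalloprotease families 12 were detected (75.0%), with a median log2(TPM + 1) of 2.52. The ADAMTS gene adt-2 had 36.6, 36.5 and 36.6 TPM and so lay above nas-37 in replicates 2 and 3 and below it in replicate 1. Of 25 nep genes, which encode neprilysin-like membrane metalloproteases, 9 were detected, with a median log2(TPM + 1) of 1.09 and with nep-17 highest at 100.2 ± 8.51 TPM. All 7 genes of a list for protease inhibitors and matrix processing were detected, among them the Kunitz-type inhibitor gene mlt-11 (92.6, 69.8 and 22.2 TPM), the tissue inhibitor of metalloprotease gene timp-1 (25.6, 22.6 and 13.0 TPM) and its relative cri-2 (46.8, 60.2 and 54.1 TPM). The proprotein convertase gene bli-4, an activator of secreted precursors, had 52.4, 43.6 and 33.6 TPM. Of these 4 genes, cri-2 was highest in replicate 2 and the others in replicate 1.

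**Figure D3:**
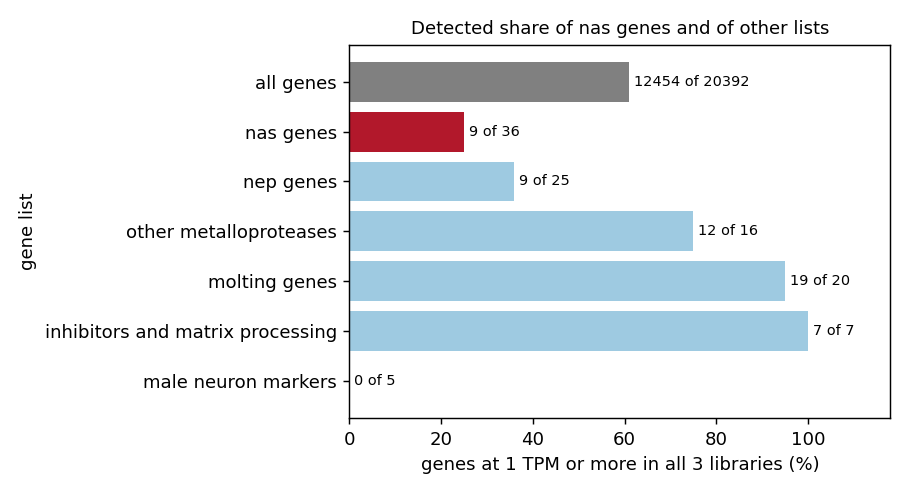
Share of genes at 1 TPM or more in all 3 libraries, as horizontal bars from 0, for all genes, the nas genes and lists of other genes, with the counts printed at the bar ends. The bar of the nas genes (9 of 36) is shorter than that of all genes (12454 of 20392) and than those of the nep genes (9 of 25) and the other metalloproteases (12 of 16).

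Many of the lowest nas genes lay together on chromosome V. A stretch of 85.7 kb (WBcel235, 11392320 to 11478007) holds 7 members in 2 clumps: nas-16, nas-18, nas-17 and nas-19, then nas-20, nas-21 and nas-22. Neighbours within the clumps are 254 to 2925 bases apart, and 68214 bases with 13 protein-coding gene starts separate nas-19 from nas-20. The 7 means summed to 0.567 TPM, which was 0.623% of the family's sum. The genes nas-16 and nas-17 were listed at 0 in all libraries, and nas-19 reached 0.0230 TPM in replicate 1 and 0 in the others.

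The highest gene of the stretch was nas-18, at 0.529, 0.164 and 0.389 TPM in replicates 1, 2 and 3. The genes nas-20, nas-21 and nas-22 were above 0 in every library, with means of 0.120, 0.0371 and 0.0412 TPM. The mean of nas-21 was 0.0221 TPM without replicate 2. No library of these 7 genes came to 1 TPM. Where neighbours resemble each other, the authors' assignment of shared reads could move RNA between them. No member above 0 had values identical to those of another gene.

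**Figure D4:**
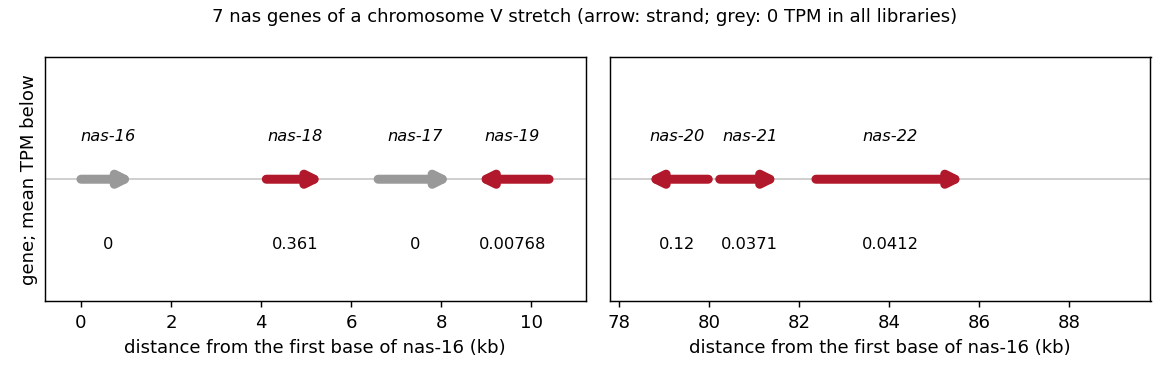
The 7 nas genes of the chromosome V stretch, drawn to scale in 2 windows by distance in kb from the first base of nas-16, with arrows for the strand and the mean TPM under each gene. The means run from 0 for nas-16 and nas-17 to 0.361 TPM for nas-18, and the 68214 bases between nas-19 and nas-20, with the other genes there, are not drawn.

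Elsewhere in the genome the members were scattered. The following counts by chromosome include the stretch. Chromosome V held 13 of the 36 (36.1%, against 25.3% of all matched genes), but 7 of these 13 are the genes of the stretch. X held 8 (22.2%, against 13.6%). Detected members numbered 4 of 13 on V, all outside the stretch, and 2 of 8 on X. Of all matched genes 46.4% on V and 58.7% on X were detected. They numbered 1 of 3 on I, 1 of 5 on II, 1 of 3 on III and 0 of 4 on IV, where the shares of all matched genes were 73.1%, 58.5%, 78.4% and 65.1%. The 2 detected members on X, nas-37 and nas-11, were the 2 highest of the family. Only the neighbours nas-18 and nas-17, nas-17 and nas-19, nas-20 and nas-21, and nas-21 and nas-22 had no protein-coding gene starting between them.

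Gene structure varied with level, in a division chosen after the values had been seen. All 10 members with at most 5 annotated exons lie on chromosome V, with coding lengths of 240 to 448 residues, and 1 of them, nas-3, was detected. Their median level was 0.0392 TPM. The 7 genes of the chromosome V stretch are among these 10, so the division largely repeats that stretch and is not a separate observation. Of the 26 members with 6 to 25 exons 8 were detected, with coding lengths of 270 to 928 residues and a median level of 0.977 TPM. Over all genes, 56.3% of those with at most 5 exons and 66.7% of those with more were detected. The longest member was nas-39 (928 residues, 25 exons) and the shortest nas-18 (240 residues, 5 exons).

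Genes with a single annotated transcript made up most of the family, and also most of all matched genes. A single transcript is annotated for 27 members, of which 4 were detected, and 2 or more for 9 members, of which 5 were detected. Of all 20133 matched genes, 14205 have 1 transcript and 5928 have 2 or more, and 53.6% and 79.7% of these were detected. The values are per gene, so isoforms of nas-4 and nas-9, with 4 transcripts each, cannot be told apart.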

How the data were processed

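RNA-seq of 3 libraries of whole N2 worms was read from 1 table. The values are TPM per gene, which the authors deposited per library with their mean; they used kallisto, per the submitters' processing notes. Its version, index, genome build and the summing of transcripts to genes are not given in the sources used here. Sequence names were matched to Ensembl release 115 (WBcel235), which named 20133 of 20392 genes (98.7%), and coordinates and exons are from it; a symbol shared by several genes was resolved by RefSeq. Means, SDs, coefficients of variation and medians of log2(TPM + 1) were computed with Python 3.11.15, numpy 2.4.6 and pandas 2.3.3, and the functions were tested on simulated data. Read counts cannot be recovered from TPM, so count models and counting intervals were not applied. Full values were given for detected members and for nas-6, nas-7, nas-36, nas-37, nas-38 and nas-39; further members and the exon division were chosen after their values were seen. Members and gene lists were chosen with earlier results of these data known. The names toh-2 and opt-2 matched no gene. Planned descriptions of protein and promoter sequences were not made here. Alternatives were other limits, pseudocounts, folds and totals, a rescaling, and leaving out each library.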

Additional observations from a re-analysis of the deposited data

How the results depend on the processing

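The count of 9 detected members depends on the limit: it was 15 at 0.5 TPM (67.8% of all genes) and 2, nas-37 and nas-11, at 5 TPM (39.4%). With totals without the 100 most abundant genes, which held 55.7% of TPM, 16 members were detected (68.6% of the other genes), the median level was 1.34 and the share of TPM 0.0205%, since values rise by construction, 2.23-, 2.30- and 2.24-fold in replicates 1, 2 and 3. The median log2(TPM + 1) of members was -0.35 with a pseudocount of 0.1, 2.51 with one of 5, and 1.86 over members averaging 1 TPM or more. The count of members with at least 2-fold between libraries was 4, and 7 when a mean of at least 1 TPM replaced detection. It was 6 at a fold of 1.5 and 3 at a fold of 3. Shares of all genes at these 2 folds are not given, so these counts cannot be set against the background. Leaving out 1 library gave 10 detected members each time, a count that this can only keep or raise, since fewer libraries must reach the limit. The gene added was nas-27 without replicate 1, nas-33 without replicate 2 and nas-15 without replicate 3. The median was then 0.72 to 0.81, the share 0.00741% to 0.0102%, and 2 to 4 members had at least 2-fold. Shares of all genes are not given for these settings. Median-of-ratios rescaling kept the counts at 9 and 4, with a median of 0.75. It moved no member's mean by as much as its SD. Leaving out 1 library moved the mean of 13 of the 33 members above 0 by over 1.5-fold: nas-37, nas-4, nas-15, nas-36, nas-6, nas-24 and nas-19 without replicate 1, nas-21 without replicate 2, and nas-38, nas-7, nas-30, nas-13 and nas-10 without replicate 3. The share of all genes whose mean moved as far is not given. No paired analysis was possible because the series has 1 group. Depth is unknown, so values far below 1 TPM cannot be given a counting error.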

Other observations

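The symbol nas-2 is carried in Ensembl by 2 genes of chromosome V (WBcel235), F56A4.1 (2466762 to 2468504) and Y19D10A.6 (2358801 to 2360543), each spanning 1743 bases with a coding length of 272 residues. RefSeq gives the symbol to F56A4.1, which was therefore the member counted. It was listed at 0 in every library, and Y19D10A.6 had 0.0375 TPM in replicate 1 and 0 in the others. Their sequences were not compared here. Reads could be shared between the 2 genes if these are alike, so both values are uncertain. With Y19D10A.6 counted as a member, which was tried only after its values were known, the detected count stayed at 9 and the median log2(TPM + 1) was 0.71.

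Members that were not detected and are not described above were low in every library. The genes nas-14, nas-23, nas-8, nas-1 and nas-28 had means between 0.271 and 0.638 TPM, and nas-24, nas-12, nas-13 and nas-10 between 0.0443 and 0.188 TPM. Single libraries weighed on 3 of these means: nas-24 was 0.188 TPM and 0.0951 without replicate 1, nas-13 was 0.108 and 0.0476 without replicate 3, and nas-10 was 0.0443 and 0.0287 without replicate 3. The steadiest of these was nas-28, at 0.254, 0.280 and 0.280 TPM.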
